A study of Mus musculus with 24 samples.

Results

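The effect of a -30 D lens on miRNA levels was examined against a plano, 0 D lens in 8 tissues of the mouse visual system. A -30 D lens is a strongly diverging lens that moves the image behind the retina and is used to induce myopia. The arrays were chosen by their labels alone: the 8 arrays of the group labelled 0D lens and the 8 arrays of the group labelled Lens-induced, which together were 16 of the 24 arrays of the series. Each group held 1 array of cornea, iris, lens, retina, choroid, sclera, SCN and LGN, so each tissue gave 1 pair. The last 2 abbreviations are not spelled out by the labels and are read here as brain regions. The other 8 arrays, labelled Control, came from the same tissues without a lens. They entered the choice of the scaling miRNAs and 1 alternative fit, and are otherwise given only as values for comparison.

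All samples were from C57BL/6J mice. According to the methods of the study, male mice wore the -30 D lens on the right eye from 3 weeks of age for 3 weeks, and each ocular array of the Lens-induced and normal groups was made from an equal mixture of RNA from 3 mice. The methods do not describe the animals of the 0D group or the SCN and LGN samples, so their age, the time the lens was worn and the number of animals pooled are not given in the sources used here. They also call the choroid preparation RPE/choroid. Each array was labelled from 100 ng of total RNA and carried probes to 1881 mouse miRNAs. With 1 array per tissue and lens group there was no replicate of any tissue, so every p-value below measures the spread between tissues. None measures the spread between animals. By the methods, the ocular tissues of the Lens-induced group were dissected from the same eyes, so these arrays are not independent samples of animals. In pooled tissue, fewer cells of a type and less RNA per cell cannot be told apart.

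MicroRNAs are short RNAs that guide Argonaute proteins to messenger RNAs. Bases 2 to 8 from the 5′ end, the seed, do most of the pairing, and miRNAs that share a seed are grouped as a family. In the eye, miR-183, miR-96 and miR-182 are known from photoreceptors, miR-184 from corneal and lens epithelium, and miR-204 and miR-211 from pigmented cells. The miR-29 family is known for binding messenger RNAs of collagens and other matrix proteins. The miR-34b/c and miR-449 families share a seed and are known from multiciliated cells, such as the ependyma that lines the brain ventricles. A mirtron, such as miR-1224, is a miRNA precursor that splicing releases as a short intron.

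The sequences of the miRNAs on which the results turn are shown with the seed in capitals. They were taken from RefSeq, build GRCm38.p6, where 1608 of the 1881 array names were matched. The first 3 are the miR-29 family, which shared the seed AGCACCA, and are shown because 1 member passed the test and the others did not.
mmu-miR-29b-3p: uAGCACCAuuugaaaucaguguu
mmu-miR-29c-3p: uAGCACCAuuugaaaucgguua
mmu-miR-29a-3p: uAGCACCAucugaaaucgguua
The next 3 were higher with the -30 D lens over the 8 tissues, had no seed in common and were rich in G.
mmu-miR-1224-5p: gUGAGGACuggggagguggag
mmu-miR-8110: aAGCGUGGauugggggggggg
mmu-miR-5126: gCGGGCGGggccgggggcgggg
The next 3 shared the seed GGCAGUG and are shown because miR-34b-5p was higher in both brain regions and miR-34a-5p was not.
mmu-miR-34b-5p: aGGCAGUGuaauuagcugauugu
mmu-miR-34a-5p: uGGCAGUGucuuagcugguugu
mmu-miR-449a-5p: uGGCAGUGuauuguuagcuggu
The last 4 moved together in the iris and sclera and had 4 different seeds.
mmu-miR-129b-5p: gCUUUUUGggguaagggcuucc
mmu-miR-6904-5p: uCCUGGGGuuagaguugagugg
mmu-miR-6918-5p: uGCUGAGGacgggauuagguucu
mmu-miR-7218-5p: uGCAGGGUuuaguguagaggg
The names miR-3960, miR-151-5p, miR-34c-5p, miR-1927, miR-504-3p and miR-7682-3p are given without a sequence.

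In GRCm38.p6, miR-29b-3p lies at chr1:195037091-195037113 on the plus strand, within A330023F24Rik, and a second copy lies at chr6:31063025-31063047 on the minus strand. miR-1224-5p lies at chr16:20604452-20604472 on the plus strand, within Vwa5b2. miR-8110 lies at chr8:89024791-89024811 on the plus strand. miR-5126 lies at chr1:84695890-84695911 on the plus strand, within Dner. miR-34b-5p lies at chr9:51103610-51103632 on the minus strand, within Btg4 and Hoatz.

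A miRNA was counted as detected on an array when at least 1 of its probes exceeded 3 times its probe error, and its signal was the sum over those probes. Signals were scaled so that the 75th percentile of 79 miRNAs detected on all 24 arrays was equal, and are given below as scaled signal. The arrays detected 129 to 249 of the 1881 miRNAs, or 6.86% to 13.2%. Photoreceptor miRNAs in the retina and neuronal miRNAs in SCN and LGN were at similar levels under both lenses. The summed signal of the 3 photoreceptor miRNAs was 15236 with 0 D and 14498 with -30 D in the retina, and none of them was detected on the 4 arrays of SCN and LGN. The summed signal of the 3 neuronal miRNAs was 2903 and 2912 in SCN and 3388 and 3383 in LGN.

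Each lens group, and the Control group, was hybridized on its own slide of 8 arrays, and each tissue had the same position on every slide. Lens and slide therefore cannot be told apart in any comparison below, those with Control included. The control probes differed between the slides. Before scaling, the hybridization spike-in dmr_6, an RNA added in equal amount to every array, was lower on the -30 D slide in 8 of 8 tissues, by a mean log2 difference of -1.07 ± 0.05 (SD, n = 8; exact sign-flip permutation test over tissues, two-sided, p = 0.00781, which is the smallest p that 8 tissues allow, adjusted p = 0.0182 over 7 array measures). The second hybridization spike-in, dmr_3, differed by -0.55 ± 0.03 and the labelling spike-in dmr_285 by -0.48 ± 0.23, and both were lower in 8 of 8 tissues with the same exact p and adjusted p. The labelling spike-in dmr_31a differed by -0.18 ± 0.25 (exact permutation p = 0.0938, adjusted p = 0.109). Local background was lower in 7 of 8 tissues, by -0.09 ± 0.08 on the log2 scale (exact permutation p = 0.0234, adjusted p = 0.0410). The 75th percentile of the miRNAs differed by -0.23 ± 0.26 (exact permutation p = 0.0625, adjusted p = 0.0875) and the number of miRNAs detected by -5.38 ± 17.7 (exact permutation p = 0.398). The part of these array differences in the results below was not tested.

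**Figure D1:**
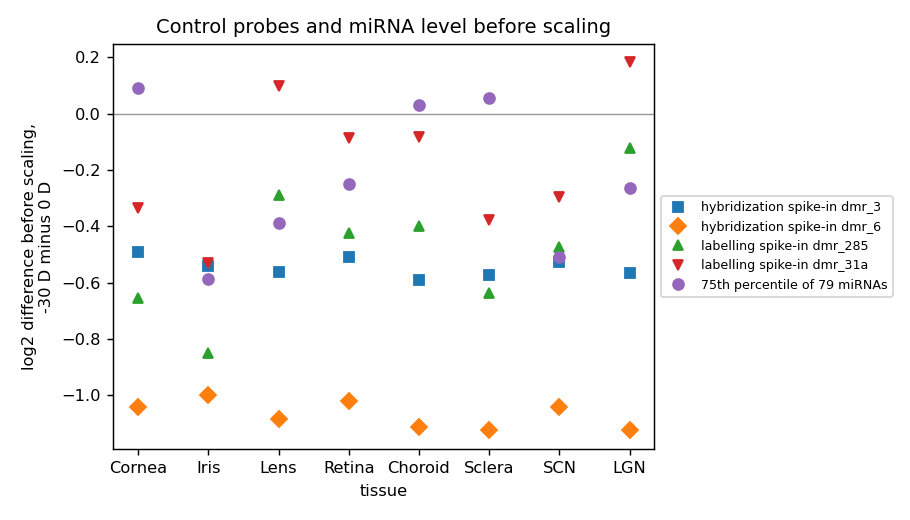
Log2 difference before scaling, -30 D minus 0 D (y axis), in each of the 8 tissues (x axis), for 4 spike-in controls and for the 75th percentile of the 79 scaling miRNAs; each point is 1 pair of arrays. The hybridization spike-in dmr_6 sits between -1.12 and -0.998 and dmr_3 between -0.59 and -0.49 in every tissue, while the miRNAs spread on both sides of 0.

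Few miRNAs differed in the same way over the tissues. A mean over tissues was tested for the 167 miRNAs detected on both arrays of at least 5 tissues. With limma's moderated test and Benjamini-Hochberg adjustment, 6 of 167 passed an adjusted p of 0.05, or 3.59%, namely 5 that rose with the -30 D lens (2.99%) and 1 that fell (0.599%). At an unadjusted p of 0.05 from the same fit there were 47, of which 30 were higher and 17 lower. The differences were small: 98.2% of the 167 mean differences lay within 0.5 on the log2 scale, none exceeded 1, and the median was 0.00. The median SD over tissues was 0.23. The same sign in all 8 tissues was found for 8 miRNAs, 5 higher and 3 lower. The counts moved with the set of tissues: without SCN, none of the 5 higher miRNAs passed, with adjusted p-values from limma of 0.0515 to 0.0705, while miR-29b-3p passed with 0.0179. Over the 6 ocular tissues alone, 0 were called higher and 1 lower by limma, with 39 at an unadjusted p under 0.05. The split of the calls followed the scaling: 1 was higher and 45 lower without scaling, where the median difference was -0.22, 12 and 8 with each tissue's median difference set to 0, 0 and 1 after quantile normalization, and 2 and 17 after normexp background correction and quantile normalization.

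miR-29b-3p was the miRNA that fell. Its scaled signal was 141 with 0 D and 93.4 with -30 D for cornea, 145 and 109 for iris, 24.3 and 18.3 for lens tissue, and 309 and 220 for retina. It was 148 and 127 for choroid, 141 and 90.1 for sclera, 894 and 753 for SCN, and 423 and 372 for LGN. In each of the 8 tissues the -30 D array was the lower, whereas the ranges of the 2 lens groups overlapped because the tissues differed far more than the lenses. The mean log2 difference was -0.40 ± 0.17 (SD, n = 8; SE 0.07; limma adjusted p = 0.00905; exact sign-flip permutation p = 0.00781), or -24.3%. For each called miRNA this exact p is the smallest that 8 tissues allow, reached when all 8 signs agree. It was not adjusted over the miRNAs tested. The decrease was smallest in LGN, at -0.19, and largest in the sclera, at -0.64. In the cornea it was -0.59, but there the -30 D array used 1 probe and the 0 D array 2, and on shared probes it was -0.48. Of its 2 probes, the brighter differed by a mean of -0.39 and was lower in 8 of 8 tissues, and the dimmer differed by -0.34 and was lower in all 6 tissues where it could be read.

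The Control array lay between the 2 lens arrays for miR-29b-3p in 7 of 8 tissues, for example at 111 in the cornea and 125 in the sclera. Against Control, the mean log2 difference was -0.18 for the -30 D arrays and 0.22 for the 0 D arrays. The difference between the lenses was thus made up of a lower value in one group and a higher value in the other. The hybridization spike-ins of the Control slide also lay between those of the lens slides in every tissue. In the cornea, dmr_6 was at 1186 on the Control array, 1790 with 0 D and 868 with -30 D, before scaling. The labelling spike-ins did not keep this order in every tissue. In the lens tissue, Control was above both lens arrays, at 923 against 694 with 0 D and 742 with -30 D for dmr_31a. For dmr_285 it was at 772 there, against 755 and 618. In LGN, Control was again above both, at 981 against 708 and 803 for dmr_31a and at 829 against 734 and 675 for dmr_285. The part of the slide in the order of the 3 groups was not tested. The family members with the same seed differed less. miR-29c-3p was lower in 8 of 8 tissues, from -0.04 in SCN to -0.40 in the sclera, with a mean of -0.20 that did not pass (limma adjusted p = 0.0624). miR-29a-3p had a mean of 0.00 (limma adjusted p = 0.982), with 3 tissues above 0 and 5 below, from -0.24 in the sclera to 0.23 in LGN.

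miR-1224-5p, the mirtron, showed the largest mean increase among the called miRNAs, and it came mainly from 3 ocular tissues. Its scaled signal was 207 with 0 D and 454 with -30 D for cornea, 127 and 291 for iris, and 291 and 792 for sclera. It was 162 and 253 in the choroid, 71.6 and 120 in SCN, and 75.4 and 104 in LGN. It was 1060.2 and 1170.3 in the lens and 189 and 204 in the retina. The -30 D array was the higher of the pair in every tissue, but by 0.14 in the lens and 0.11 in the retina against 1.13 for cornea, 1.19 for iris and 1.45 for sclera, on the log2 scale. The mean was 0.74 ± 0.49 (SD, n = 8; SE 0.14; limma adjusted p = 0.0115; exact permutation p = 0.00781), or 66.5%. The mean log2 difference from Control was 0.73 for -30 D and -0.01 for 0 D, but the 0 D value averaged differences of both signs. Control lay below both lens arrays in 4 tissues, among them the cornea at 155 and the sclera at 165, and above both in 3, among them the lens tissue at 1555.0 and SCN at 132. Of the 2 probes, 1 was higher in 8 of 8 tissues, by a mean of 0.74, and the other was higher in 6 and lower in 2, by a mean of 0.69.

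miR-8110, miR-5126 and miR-3960 were the other miRNAs called higher with both probes in the same direction on average. miR-3960 is known from a cluster with miR-2861 that is expressed in osteoblasts. For miR-8110, the 0 D arrays ran from 76.5 in LGN to 3241 in the lens tissue and the -30 D arrays from 107 to 3730 in the same tissues. Its log2 difference was smallest in the choroid, at 0.05, and largest in the sclera, at 0.72, with a mean of 0.43 ± 0.25 (SD, n = 8; limma adjusted p = 0.0115; exact permutation p = 0.00781). For miR-5126, signals were 149 and 195 for cornea, 546 and 767 for iris, 96.6 and 142 in SCN, and 74.2 and 113 in LGN, with 0 D and -30 D. Its largest difference was in LGN, at 0.61, and its smallest in the choroid, at 0.05, with a mean of 0.35 ± 0.20 (SD, n = 8; limma adjusted p = 0.0118; exact permutation p = 0.00781). miR-3960 went from 79.6 to 112 in the cornea, from 139 to 223 in the sclera and from 37.8 to 40.4 in the retina, with a mean of 0.35 ± 0.21 (SD, n = 8; limma adjusted p = 0.0181; exact permutation p = 0.00781). For these 3 miRNAs the retina and choroid were among the tissues with the smallest differences, between 0.05 and 0.18. The 0 D arrays were below Control on average, by a mean log2 difference of -0.17 for miR-8110, -0.33 for miR-5126 and -0.21 for miR-3960, and the -30 D arrays were above Control by 0.26, 0.02 and 0.14.

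miR-151-5p passed with the smallest mean and with probes that disagreed. Its signal went from 140 to 165 in the cornea, from 117 to 151 in the lens, from 289 to 305 in the retina and from 428 to 554 in LGN. The mean log2 difference was 0.23 ± 0.11 (SD, n = 8; range 0.07 to 0.37; limma adjusted p = 0.0434; exact permutation p = 0.00781). One probe was higher in 8 of 8 tissues, by a mean of 0.30, and the other was higher in 3 and lower in 5, with a mean of -0.03. Without scaling its mean was -0.00132, so its direction depended on the scaling.

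**Figure D2:**
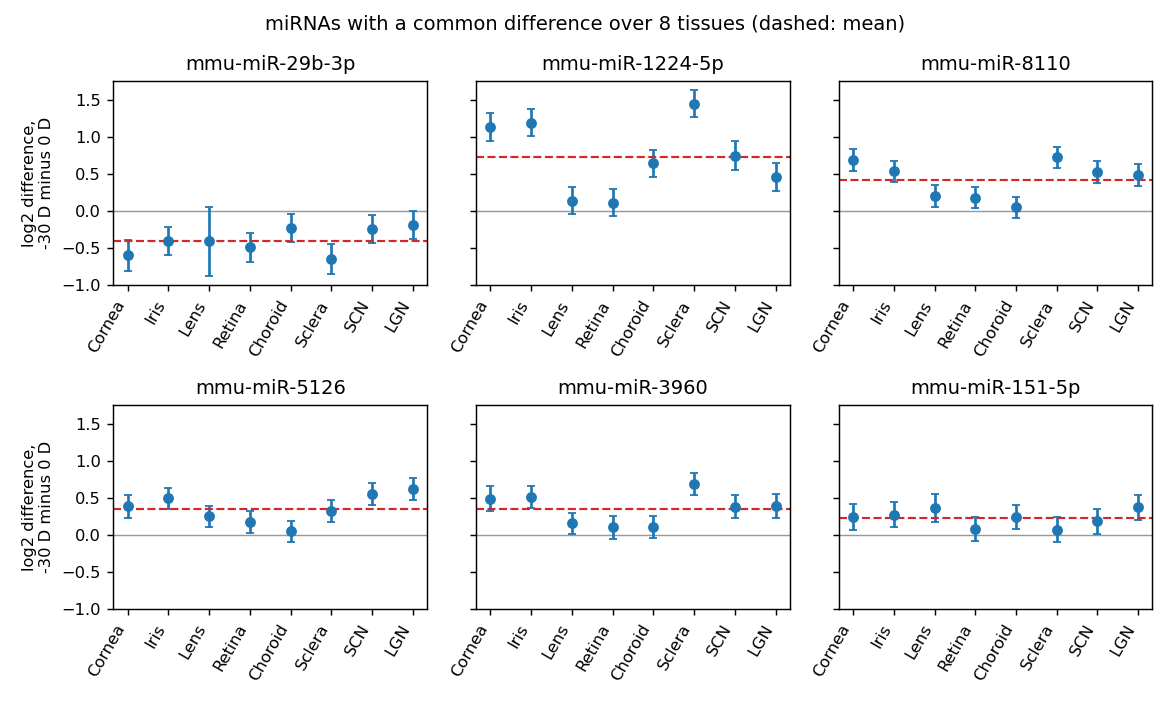
Log2 difference of the scaled signal, -30 D minus 0 D (y axis), in each of the 8 tissues (x axis), for the 6 miRNAs past an adjusted p of 0.05; points are 1 pair of arrays, bars are the error propagated from the probe errors of the arrays and the dashed line is the mean over tissues. All 8 points of miR-29b-3p lie below 0 and all 8 points of the other miRNAs above it, and miR-1224-5p reaches 1.45 in the sclera but 0.11 in the retina.

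The miRNAs next in the order of the test did not pass, and are given as values. Above 0 were miR-99a-5p (mean 0.29, above 0 in 7 of 8 tissues), miR-6538 (0.42, 6 of 6), miR-466i-5p (0.40, 7 of 8) and miR-193b-3p (0.26, 7 of 8), each with a limma adjusted p of 0.0516. They were followed by miR-184-3p (0.46, 5 of 6) and miR-2861 (0.57, 6 of 6), each with a limma adjusted p of 0.082. Below 0, with a limma adjusted p of 0.0516, were miR-1a-3p, a miRNA of striated muscle (-0.47, below 0 in 5 of 6 tissues), miR-338-3p, known from oligodendrocytes (-0.35, 7 of 8), and miR-350-3p (-0.37, 7 of 7). They were followed by miR-690 (-0.44, 6 of 7, limma adjusted p = 0.0666) and let-7f-5p (-0.22, 7 of 8, limma adjusted p = 0.082). miR-338-3p went from 251 with 0 D to 168 with -30 D in SCN, from 643 to 573 in LGN and from 60.4 to 45.4 in the retina. miR-1a-3p went from 39.3 to 23.97 in the sclera and from 77.7 to 65.3 in the lens.

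The mean difference varied with the base composition of the miRNA. Of the 167 tested, 146 had a matched sequence (87.4%). Across these 146 miRNAs the G+C content and the mean difference had a Pearson r of 0.50 and a Spearman rho of 0.45. These are given as a description, since the miRNAs share the same arrays and are not independent. Among the miRNAs with the lowest G+C, 31.8% to 40.9%, the median difference was -0.11 and 14 of 43 miRNAs were above 0. Among those with the highest G+C, 57.1% to 100%, the median was 0.12 and 28 of 37 were above 0. The relation was seen in each tissue taken alone, with r from 0.18 to 0.50. Of the called miRNAs with a sequence, miR-29b-3p had a G+C content of 34.8%, miR-1224-5p 66.7%, miR-8110 71.4% and miR-5126 100%, so the one that fell was poor in G+C and those that rose were rich. After each tissue's relation to G+C was subtracted, 0 of 146 were called by limma, with 27 at an unadjusted p of 0.05. The called miR-3960 and miR-151-5p had no matched sequence and were not in this fit. The adjusted mean was -0.26 for miR-29b-3p (limma adjusted p = 0.056), 0.59 for miR-1224-5p (0.056), 0.24 for miR-8110 (0.112) and -0.09 for miR-5126 (0.52). Against Control, r was 0.26 for the -30 D arrays and -0.28 for the 0 D arrays.

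**Figure D3:**
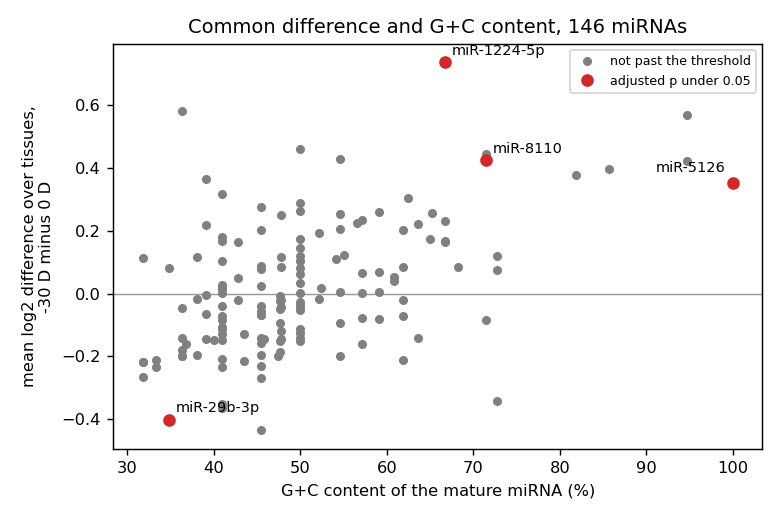
Mean log2 difference over tissues, -30 D minus 0 D (y axis), against the G+C content of the mature miRNA in percent (x axis), for the 146 tested miRNAs with a matched sequence; red points passed an adjusted p of 0.05. The points rise from left to right (r = 0.50), with miR-29b-3p at 34.8% and -0.40 and miR-8110 at 71.4% and 0.43.

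In single tissues the difference has no test, and miRNAs were counted whose ratio was above 2 or below 0.5 with both arrays detecting them, as in the criterion of the study. Over the 8 tissues there were 61 ratios above 2 and 9 below 0.5 among 1581 pairs. In the iris 21 of 207 miRNAs (10.1%) were above 2 and 0 below 0.5. In the cornea 10 of 146 (6.85%) were above 2 and 0 below 0.5. The sclera had 10 of 206 above (4.85%) and 4 below (1.94%), and the choroid 10 of 217 above (4.61%) and 1 below (0.461%). SCN had 4 of 236 above (1.69%) and 0 below, and LGN 6 of 221 above (2.71%) and 2 below (0.905%). The retina had 0 of 221 above and 2 below (0.905%), and the lens tissue had 0 of 127 in either direction. The 70 ratios came from 47 miRNAs, of which 27 were past 2-fold in 1 tissue, 17 in 2 tissues and 3 in 3 tissues, and no miRNA was past 2-fold in both directions. For 33 of the 70, the 2 arrays used different numbers of probes, since a probe below the limit on 1 array was left out of its sum. When the sum was kept to probes above the limit on both arrays, 44 of the 70 were past 2-fold, 42 of them higher.

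A set of 8 miRNAs was higher together in the anterior and outer coats of the eye. It was chosen after its values were seen, as the miRNAs above 2-fold in both iris and sclera that in the cornea were also above 2-fold or, where the 0 D array did not detect them, above its detection limit, so no test is given. One further miRNA above 2-fold in iris and sclera, miR-7686-5p, missed this rule: its corneal signal with -30 D, 8.87, lay below the limit of the 0 D array, and in the choroid its log2 difference was -0.08. Beside miR-1224-5p it held miR-129b-5p, miR-1927, miR-504-3p, miR-6904-5p, miR-6918-5p, miR-7218-5p and miR-7682-3p. In the iris, miR-6904-5p went from 5.78 to 16.2, miR-504-3p from 8.44 to 23.2 and miR-6918-5p from 12.8 to 31.8. The Control iris had 7.72, 11.1 and 15.1, near the 0 D array. In the sclera the same 3 went from 13.3 to 48.4, from 19.5 to 58.6 and from 29.1 to 81.0, with Control at 14.0, 20.6 and 28.6.

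The other 4 ran the same way. In the sclera miR-129b-5p went from 15.3 to 41.4, miR-1927 from 14.6 to 34.5, miR-7218-5p from 18.5 to 44.8 and miR-7682-3p from 12.6 to 29.5. In the iris they went from 6.66 to 17.8, from 7.08 to 16.8, from 8.29 to 19.1 and from 4.99 to 11.6. In the cornea all 7 were detected on the -30 D array and on neither the 0 D nor the Control array. The corneal signals with -30 D were between 26.0 for miR-7682-3p and 82.7 for miR-6918-5p, which against the detection limit of the 0 D array was at least 1.33-fold higher for miR-7682-3p and at least 4.13-fold higher for miR-6918-5p. In the choroid, miR-504-3p went from 6.60 to 21.0 and miR-1927 from 4.84 to 15.7, but with fewer probes on the 0 D array, and their log2 differences on shared probes were 0.89 and 0.69. None of the 7 was detected on the lens tissue, SCN or LGN arrays. In the retina, miR-6904-5p went from 3.56 to 4.40 and miR-6918-5p from 7.10 to 8.85, log2 differences of 0.30 and 0.32. There miR-504-3p was detected with 0 D alone, at 2.74, and the others with neither lens. The signals of these 7 were low on the 0 D arrays, while those of miR-1224-5p were well above the limit of detection.

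**Figure D4:**
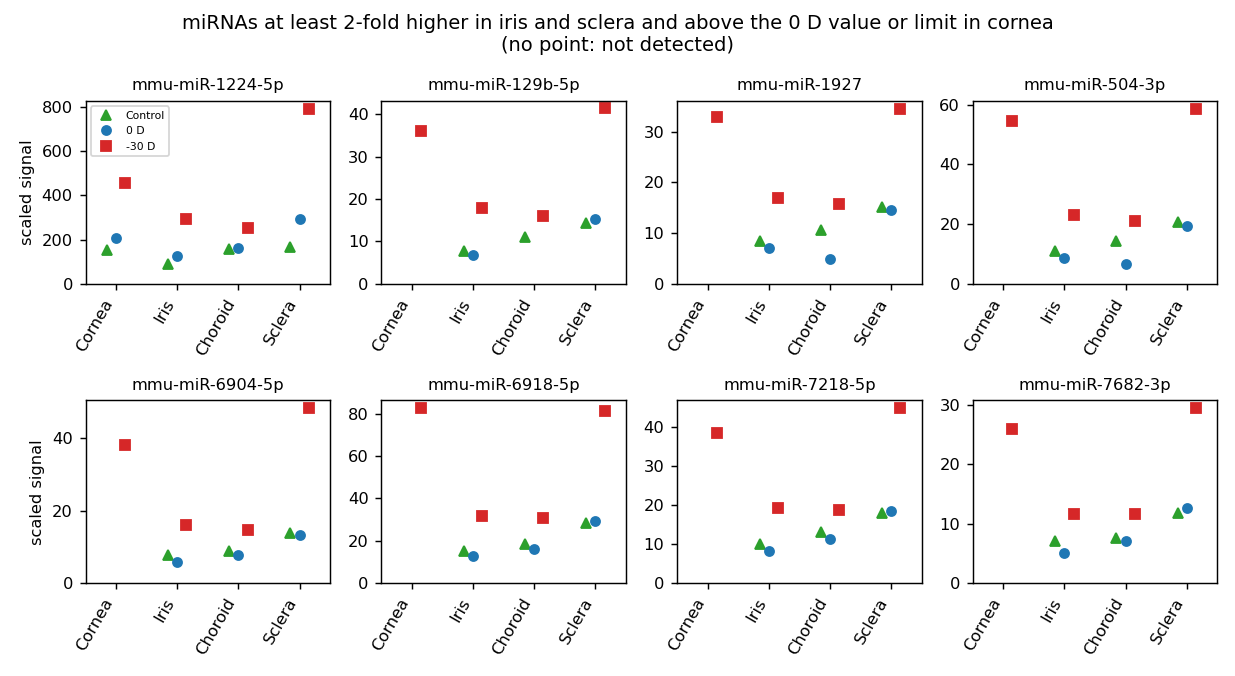
Scaled signal (y axis, linear from 0, own scale in each panel) of the 8 miRNAs above 2-fold in iris and sclera and above the 0 D value or limit in the cornea, shown for cornea, iris, choroid and sclera (x axis), for the Control, 0 D and -30 D arrays; each point is 1 array and a missing point was not detected. The -30 D point is the highest in each tissue shown, and in the cornea 7 of the 8 panels have a -30 D point alone.

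Members of the miR-466 and miR-467 families, many of which are encoded in an intron of Sfmbt2, were higher in cornea and iris. The log2 difference was 1.77 (cornea) and 1.44 (iris) for miR-466f-3p, 1.47 and 1.37 for miR-466h-3p, 1.74 and 1.64 for miR-466i-3p, 1.18 and 1.18 for miR-466q, and 1.01 and 1.14 for miR-467f. miR-466h-3p had a signal of 55.5 with 0 D and 153 with -30 D on the cornea arrays and 12.0 and 30.8 on the iris arrays. The Control array, at 57.0, was near the 0 D array in the cornea, and at 31.4 near the -30 D array in the iris. In the other tissues miR-466h-3p differed by -0.37 in the sclera and LGN, -0.18 in the lens tissue, 0.06 in SCN, 0.15 in the retina and 0.30 in the choroid. miR-466i lies elsewhere, at chr13:17747552-17747573 on the plus strand. Members of these families share long stretches of sequence, so probes for one may bind another. The summed signal of the Sfmbt2 list, which takes all array names of miR-297, miR-466, miR-467 and miR-669, differed by 1.03 for cornea and 0.67 for iris, and by between -0.15 and 0.21 in the other 6 tissues. In the iris, markers of neural retina were also higher with -30 D than with 0 D. miR-124-3p, of neurons, went from 11.6 to 23.5, and the summed photoreceptor miRNAs from 20.5 to 32.8, with the retina at 15236 and 14498. The Control iris was at 33.4 for miR-124-3p, above both lens arrays, and at 26.2 for the photoreceptor sum, between them. The part of these markers in the iris differences was not tested.

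Some miRNAs lay in 1 tissue at least 1 log2 unit beyond the median of their other tissues, though some of them were past 2-fold in a second tissue too. miR-211-5p, of pigmented cells, had a signal of 12.0 with 0 D and 43.3 with -30 D in the cornea, a log2 difference of 1.85 ± 0.30 (propagated probe error of 1 array pair), with Control at 23.7. In LGN it was also past 2-fold, at 1.37, from 1.74 to 4.51. In the 5 other ocular tissues it was below 0, from -0.55 in the sclera to -0.23 in the iris and choroid. On shared probes it was 1.44 in the cornea, 0.47 in LGN and 0.14 in the lens tissue, where the sum gave -0.38. miR-184-3p, the epithelial miRNA, went from 111 to 275 in the sclera, a difference of 1.30 ± 0.15, with Control at 123. It was past 2-fold there, but less than 1 log2 unit above the median of its other tissues, which was 0.32. Its signal was 29710 and 34076 for cornea, 11130 and 16390 for lens tissue and 550 and 541 for iris, so differences of 0.20, 0.56 and -0.02 were found where it is abundant. In SCN it was detected with -30 D alone, at 12.3, at least 1.84-fold above the limit of the 0 D array.

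miR-690 went the other way in the sclera, from 170 to 79.8, a difference of -1.09, and Control was at 77.0, near the -30 D array. It too lay less than 1 log2 unit beyond the median of its other tissues, which was -0.33. miR-466i-3p in the iris rested partly on probe number, with 1.64 ± 0.33 for the sum and 1.2 on shared probes, and it was past 2-fold in the cornea too. miR-7686-5p in the sclera went from 6.02 to 20.01, or 1.73 ± 0.51, and 1.01 on shared probes, and in the iris it had 1.41, and 0.66 on shared probes. miR-8101 in the choroid had 1.16 ± 0.45 and 0.30 on shared probes. miR-31-5p, of surface epithelium, went from 23.8 to 11.02 in LGN, or -1.11 ± 0.26, and -0.66 on shared probes. The largest single ratio, miR-574-3p in the iris, had a log2 difference of 2.46 for the sum and 1.36 on shared probes. The values of this paragraph other than that of miR-690 were therefore moved by which probes passed the limit.

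miRNAs detected on 1 array of a pair gave 81 cases with -30 D alone and 124 with 0 D alone. With -30 D alone there were 26 in the cornea and 22 in the choroid, against 3 and 5 with 0 D alone. With 0 D alone there were 27 in the iris, 24 in the retina and 22 in the lens tissue, against 6, 1 and 2 with -30 D alone. For 31 of them the detected signal exceeded the limit of the other array, 26 with -30 D and 5 with 0 D, and for most it did not. That limit sums the errors of all probes of a miRNA and is stricter than the rule for detection. The highest bound was that of miR-126a-3p, of endothelium, which had a signal of 86.5 in the -30 D cornea and was not detected with 0 D, where the limit was 19.5, so it was at least 4.45-fold higher. It was not detected in the Control cornea either. In the tissues where both arrays detected it, its log2 difference ran from -0.67 in the sclera to 0.22 in the choroid. miR-7045-5p was at least 2.999-fold lower in the -30 D lens tissue, with 82.2 on the 0 D array. In the Control lens tissue miR-7045-5p was not detected either, so the 0 D array stood apart from both. miR-6906-5p was at least 2.58-fold higher in the -30 D iris, at 11.6, but in the sclera, the only tissue where both arrays detected it, it went from 19.1 to 7.54, a log2 difference of -1.34, and -0.67 on shared probes.

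The difference in the eye was then set against that in the brain, since the lens was worn on the eye. Of 129 miRNAs detected on both arrays of SCN, LGN and at least 4 ocular tissues, 3 passed in limma (2.33%) and 13 had an unadjusted p under 0.05. In all 3, the difference between the lenses was larger in the 2 brain regions. Over all 129, the mean ocular difference minus the mean brain difference had a median of -0.18, so the brain side was the higher in general. miR-34b-5p had a signal of 114 with 0 D and 347 with -30 D in SCN, and 51.2 and 153 in LGN. The Control arrays, at 145 and 56.4, were near the 0 D arrays. In the eye it was 60.2 and 55.1 for lens tissue, 16.2 and 11.9 for iris, 14.8 and 11.3 for retina, 7.97 and 10.67 in the choroid and 6.13 and 5.78 in the sclera, and it was not detected in the cornea. The log2 difference was thus 1.60 ± 0.17 in SCN and 1.58 ± 0.17 in LGN (propagated probe error), and between -0.44 and 0.42 in the 5 ocular tissues. The ocular minus the brain mean was -1.71 (SE 0.23, limma adjusted p = 0.0026).

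miR-34c-5p, which is transcribed together with miR-34b, gave the same picture. Its signal was 73.8 with 0 D and 201 with -30 D in SCN and 34.2 and 86.4 in LGN, with Control at 94.2 and 29.2. In the iris, lens tissue, retina and choroid it was between 4.38 and 25.0 under either lens, and the differences were between -0.37 and 0.00. The ocular minus the brain mean was -1.59 (SE 0.18, limma adjusted p = 0.0026). Both miRNAs used the same probes on the 0 D and -30 D brain arrays, and on shared probes the values were -1.48 for miR-34b-5p and -1.59 for miR-34c-5p, each with a limma adjusted p of 0.000453. miR-34a-5p, which has the same seed but its own gene, differed by 0.12 in SCN (157 and 170) and -0.07 in LGN (673 and 642). miR-449a-5p and miR-34c-3p were detected on the -30 D SCN array alone among the 16, at 6.18 and 8.66. For miR-449a-5p this was below the limit of the 0 D SCN array, 6.69, so no difference between the lenses can be read from it. For miR-34c-3p the limit was 6.75, so it was at least 1.28-fold higher. miR-204-5p, which is also abundant in choroid plexus, differed by 0.01 in SCN and by 0.59 in LGN, where it went from 130 to 196. The test rests on 1 pair of arrays in each of 2 brain regions. Where every array was given the same distribution by quantile normalization, 0 of the 129 passed in limma and 7 had an unadjusted p under 0.05. Adjusted p-values ran from 0.000453 to 0.31 for miR-34b-5p and from 0.000453 to 0.611 for miR-34c-5p over the settings tried.

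**Figure D5:**
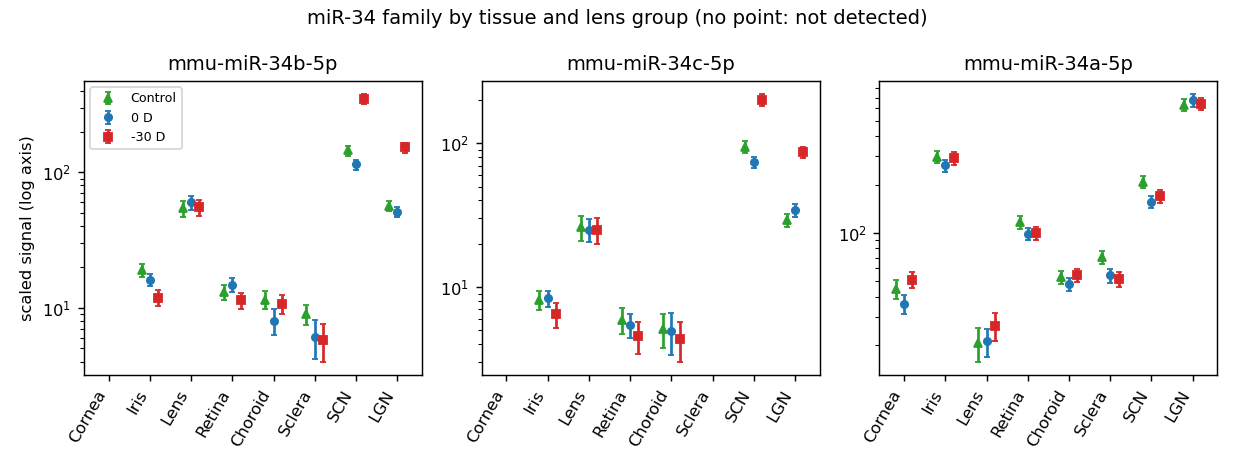
Scaled signal (y axis, log axis, own scale in each panel) of 3 miRNAs with the seed GGCAGUG in the 8 tissues (x axis) for the Control, 0 D and -30 D arrays; points are single arrays, bars are probe errors and a missing point was not detected. For miR-34b-5p and miR-34c-5p the -30 D points stand above the others in SCN and LGN, at 347 and 153 for miR-34b-5p, and for miR-34a-5p the lens groups lie close together in both.

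The third, miR-7082-5p, was changed by the choice of probes. Its signal went from 6.90 to 17.1 in SCN and from 5.45 to 13.7 in LGN, but the -30 D brain arrays used 2 probes and the 0 D arrays 1. The Control arrays had 18.3 and 13.3, near -30 D. The ocular minus the brain mean was -1.17 (SE 0.18, limma adjusted p = 0.00313). On shared probes it was -0.60 and did not pass (limma adjusted p = 0.236). Without LGN it did not pass either (limma adjusted p = 0.0705).

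The miRNAs of the tissue and pathway lists are given by their counts, beside a median of 0.00 over all 167 tested, of which 84 were above 0 and 83 below, 0.599% were called lower and 2.99% called higher. In the miR-29 family 3 of 3 were tested and 1 was called lower (median -0.20). Among the mirtrons, 2 of 3 were tested and 1 was called higher (median 0.40). In no other list was a member called. Of the let-7 family 9 of 9 were tested, 4 above 0 and 5 below, with a median of -0.07. Of the Sfmbt2 list 8 of 61 were tested, 7 above 0 and 1 below, with a median of 0.24. Medians above 0 were also found for the photoreceptor list (0.13, 2 of 3 tested), neurons (0.10, 2 of 3), pigmented cells (0.07, 2 of 2), miR-184 (0.46, 1 of 1) and the hypoxia-linked miR-210 (0.22, 1 of 1).

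Medians below 0 were found for oligodendrocytes (-0.35, 1 of 2 tested), surface epithelium (-0.20, 1 of 3), striated muscle (-0.11, 3 of 4), fibroblasts (-0.08, 1 of 3), blood cells (-0.10, 2 of 6), endothelium (-0.14, 1 of 2), inflammation-linked miRNAs (-0.20, 1 of 4) and the activity-regulated miR-132 and miR-212 (-0.05, 2 of 3). No member of the miR-200 family or of the smooth muscle list was detected in enough tissues to be tested. miR-21a-5p, the inflammation-linked miRNA that was tested, went from 1268 to 888 in the cornea and from 266 to 199 in the sclera. The marker lists did not move together in one direction over the tissues. In the sclera, where the median difference over all 206 miRNAs read on both arrays was -0.26, the summed fibroblast miRNAs differed by -0.22, the endothelial by -0.67 and the photoreceptor miRNAs by 0.25. In the cornea, where that median was -0.06, miR-124-3p of the neuronal list went from 26.2 to 24.3, and miR-9-3p was detected with -30 D alone, at 19.9, about the limit of the 0 D array of 19.7.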

How the data were processed

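Total RNA was labelled with Cy3 and hybridized to 1-colour Agilent mouse miRNA arrays (miRBase 21 content). The authors deposited 1 scanner file per array, in which Feature Extraction 10.7.1.1 (per the submitters' processing notes) gives intensity per probe, already background-subtracted, with its error. No spot of a miRNA was saturated. A normalized table of the whole series was not used, since its column names do not tell the lens groups apart.

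The members and lists were chosen with earlier results of these data known. Control spots were left out. Per miRNA, the intensity of unique probes above 3 times their error was summed, and each array was scaled to the 75th percentile of 79 miRNAs detected on all 24 arrays (log2 factors -1.01 to 1.65 over the 16 used). The log2 difference, -30 D minus 0 D, was taken in each tissue where both arrays detected the miRNA, with tissue as the block. Its mean over at least 5 tissues, and the ocular minus the brain mean, were tested with limma 3.58.1 in R 4.3.3 (lmFit, eBayes with a trend on level, two-sided, Benjamini-Hochberg over all miRNAs tested, threshold 0.05). Called miRNAs also got an exact sign-flip permutation test over tissues. The limit of an undetected miRNA was 3 times the summed errors of its probes, or the array's lowest detected signal if higher. This limit is stricter than the rule for detection, which needs 1 probe above 3 times its own error. The fit was tested on simulated data.

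Named were every called miRNA, the next 6 in each direction with at most 1 tissue of the other sign, the most extreme miRNA per tissue that lay at least 1 log2 unit beyond the median of its other tissues or was detected on 1 array with a bound above 1.5-fold, and list members. The alternatives were scaling, background, detection limit, probe choice, G+C adjustment and left-out tissues. The number of arrays, 1 per tissue and lens group, limits the precision.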

Additional observations from a re-analysis of the deposited data

Results flagged for a closer look

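In 3 miRNAs the difference between the lenses in the ocular tissues was not that in the brain regions, by a test of the difference itself. The ocular minus the brain mean log2 difference was -1.59 for miR-34c-5p and -1.71 for miR-34b-5p (limma adjusted p = 0.0026 for each), where the signals were higher with the -30 D lens in both SCN and LGN. It was -1.17 for miR-7082-5p (limma adjusted p = 0.00313), whose brain arrays used unequal numbers of probes. The slide of the lens group cannot be told apart from the lens in these values.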

How the results depend on the processing

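Of the miRNAs with a common difference (5 called higher, 1 lower), counts moved with the processing. Higher and lower calls were 1 and 45 without scaling, where the median difference was -0.22, 12 and 8 with the median difference of each tissue set to 0, and 2 and 17 with normexp background and quantile normalization. Quantile normalization alone called 0 higher. They were 9 and 4 over miRNAs detected on all 16 arrays, 11 and 3 over those above the median level, and 9 and 5 with weights from the probe errors. Over the ocular tissues alone, and with all 24 arrays, 0 were called higher. With no tissue block 0 were called in either direction by limma, and 0 had an unadjusted p under 0.05. Leaving out 1 tissue at a time gave 0 to 7 higher (0 without SCN, 3 without cornea or LGN) and 1 to 3 lower (2 without iris or lens tissue, 3 without choroid). The following alternatives were all chosen after seeing the data. Scaling by the 75th percentile of each array's own detected miRNAs called 0 and 0 (29 at an unadjusted limma p under 0.05). Adjustment for G+C called 0 and 0 of the 146 with a sequence (27 at an unadjusted limma p under 0.05). That fit left out miR-3960 and miR-151-5p. Only probes above the limit on both arrays gave 12 and 4. Leaving out tissues from the ocular against brain test was also chosen then. miR-29b-3p was called in 20 of 23 settings (limma adjusted p 0.000474 to 0.999), miR-1224-5p and miR-5126 in 15 of 23, miR-8110 in 14 of 23, miR-3960 in 12 of 22 and miR-151-5p in 9 of 22. The direction turned for miR-151-5p without scaling (-0.00132), for miR-5126 after G+C adjustment (-0.092) and for miR-184-3p without the tissue block (-1.27). The ocular against brain calls were 0 after quantile normalization and 1 after normexp, and 2 to 4 when 1 tissue was left out, and without LGN miR-7082-5p was lost. Ratios above 2 and below 0.5 in single tissues (61 and 9) were 38 and 40 without scaling, 8 and 4 after normexp, 11 and 1 at a 3-fold limit and 38 and 15 at a detection limit of 5 probe errors. Ratios below 0.5 were 77 after quantile normalization, 29 with the percentile of each array and 2 on shared probes. The cause of these changes was not tested. The 75th percentile over all miRNAs gave no value of its own, since undetected miRNAs, set to 0.1, fixed it on every array.
Differences in single tissues have only the probe error behind them.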
